A study of Mus musculus with 8 samples.

Results

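Lysosomal hydrolases and lysosomal membrane proteins were examined as a group of 45 named genes in dendritic cells, the antigen-presenting cells of the immune system, that had been grown from mouse bone marrow. The members were taken by gene symbol from a table of 55880 genes, where each of the 45 symbols had 1 row, and all 45 had enough counts to be tested. They comprise 12 proteases and related enzymes, 16 glycan hydrolases, 9 lipid hydrolases with their helper proteins, and 8 membrane proteins. The marrow donors were 6-week-old wild-type C57BL/6 males, and interleukin-4 (10 ng/mL) and GM-CSF (20 ng/mL) drove differentiation over a culture of 6 days. LMF cells (4 libraries) spent 24 h with ITRs and then received a low-frequency magnetic field. Control cells (4 libraries) were untreated according to the protocol, and RNA of both groups dates from 6 h after treatment. The groups rest on the sample titles, because the treatment entry in the labels is the same for all 8 libraries, Control included. The name ITR is not spelled out in the labels, where the title has "intracellular magnetic torque-regulator". ITRs and field were given together in the only treated group analysed here, so their contributions cannot be told apart.

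Lysosomes are acidic organelles in which acid hydrolases break down proteins, glycans and lipids that arrive by endocytosis, phagocytosis and autophagy. Most soluble hydrolases are carried there by mannose 6-phosphate receptors, and the limiting membrane is lined by heavily glycosylated proteins such as LAMP1 and LAMP2. In dendritic cells the proteases also trim the invariant chain and cut antigens into peptides for MHC class II molecules. Many lysosomal genes are controlled by transcription factors of the MiT-TFE family, TFEB among them, which bind an E-box-like element at their promoters.

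That element could be looked for in the promoter windows of 39 members, which RefSeq gives for GRCm38.p6 as the 250 bases before and the 50 bases from the annotated start. Ctsb, Ctsh, Galns, Aga, Asah1 and Npc1 were not in that table. The core CACGTG, which reads the same on both strands, was present in 14 of the 39 members (35.9%), in 11.6% of the 10119 tested genes with a window and in 7.15% of all windows of the same length. The longer form TCACGTGA, which contains the core, was present in 6 of 39 members (15.4%), in 2.15% of tested genes and in 0.974% of all windows. The longer form with G before it and C after it was found in 1 member, Cln3, in 0.791% of tested genes and in 0.326% of all windows. Shares of members and of tested genes count a gene if any of its windows holds a match. Counted in that way, all genes with a window gave 8.09% for the core, 1.12% for the longer form and 0.37% for the longest. The windows below are shown because they hold more than 1 core or the longer form. Each is cut from 10 bases before the first core to 10 bases after the last (or to the end of the window) and read 5′ to 3′ on the gene's strand. Capitals mark each CACGTG, extended to TCACGTGA, and to the G and C around it in Cln3, where the flanking bases are those letters.
Lamp1, chr8:13159090-13159161, plus strand: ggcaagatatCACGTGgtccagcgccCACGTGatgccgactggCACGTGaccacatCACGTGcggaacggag
Cln3, chr7:126583342-126583395, minus strand: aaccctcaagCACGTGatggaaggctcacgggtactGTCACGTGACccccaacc
Mcoln1, chr8:3500438-3500489, plus strand: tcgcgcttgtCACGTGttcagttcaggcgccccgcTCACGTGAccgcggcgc
Ctsd, chr7:142387910-142388077, minus strand: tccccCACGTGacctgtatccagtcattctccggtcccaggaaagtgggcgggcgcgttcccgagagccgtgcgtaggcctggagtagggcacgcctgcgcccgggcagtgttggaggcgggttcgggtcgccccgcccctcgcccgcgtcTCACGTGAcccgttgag
Ctsa, chr2:164833751-164833793, plus strand: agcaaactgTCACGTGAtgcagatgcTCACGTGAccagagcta
Gla, chrX:134601184-134601242, minus strand: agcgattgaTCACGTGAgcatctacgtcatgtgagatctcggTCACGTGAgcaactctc
Ifi30, chr8:70766844-70766869, minus strand: ccaaaaactTCACGTGAccagacatg

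Lamp1 held 4 cores, at -61, -45, -28 and -15 from the start. Of the 7 genes shown, Lamp1, Cln3, Mcoln1 and Ctsd were lower in LMF, and Ctsa, Gla and Ifi30 did not pass the test. The core was present in 8 of the 23 windowed members that fell (34.8%) and in 6 of the 15 that did not pass (40%). A match is a description of the letters in these windows and does not show that a factor binds there.

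Library depth was 16592672 to 18532878 summed counts in LMF and 17309368 to 21585750 in Control. LMF replicate 1 scored 9.58 on the second principal component (7.2% of variance), beside scores of -6.01 to 1.90 in LMF replicates 2 to 4. Of 11 dendritic cell markers, Itgax, Flt3, H2-Ab1 and 7 others were detected above 1 CPM and Cd209a was below it in every library. Levels within a gene are given as CPM, read counts relative to a library total scaled by TMM, and levels between genes as the authors' FPKM, which also divides by gene length. The labels do not say whether libraries of a group came from separate cultures or mice, and the p-values here rest on the spread between these libraries alone, which may be technical. Because the samples are bulk RNA, fewer cells of a type and less RNA per cell cannot be told apart.

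Lysosomal genes were more often lower than higher in LMF, nearly all by small amounts. Of the 45 members, 25 fell, 1 rose and 19 did not pass (edgeR's quasi-likelihood test, threshold 0.05 on the adjusted p). The share that fell was 55.56%, where 16.9% of all 14074 tested genes fell, and the share that rose was 2.222%, where 17.5% of all tested genes rose. The members were chosen with earlier results of these data known, and the gap between these shares was not tested. Among the 7586 tested genes at least as abundant as the least abundant member, 23.3% fell and 24.1% rose, 47.4% in all, where 34.4% of all tested genes passed. The median log2 fold change was -0.14 over the members and -0.00022 over all tested genes. Among the members that fell, the log2 fold change lay between -0.11 and -1.45, and 6 of them, Engase, Sgsh, Man2b1, Ctsh, Smpd1 and Scarb2, fell by at least 0.32 on the log2 scale, as did 8.26% of all tested genes, where 9.07% rose by as much. In 25 members every LMF library lay below every Control library (15.7% of all tested genes), and in 1 member every LMF library lay above (16.1%), and among the 7586 abundant genes these shares were 21.3% below and 22% above.

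**Figure D1:**
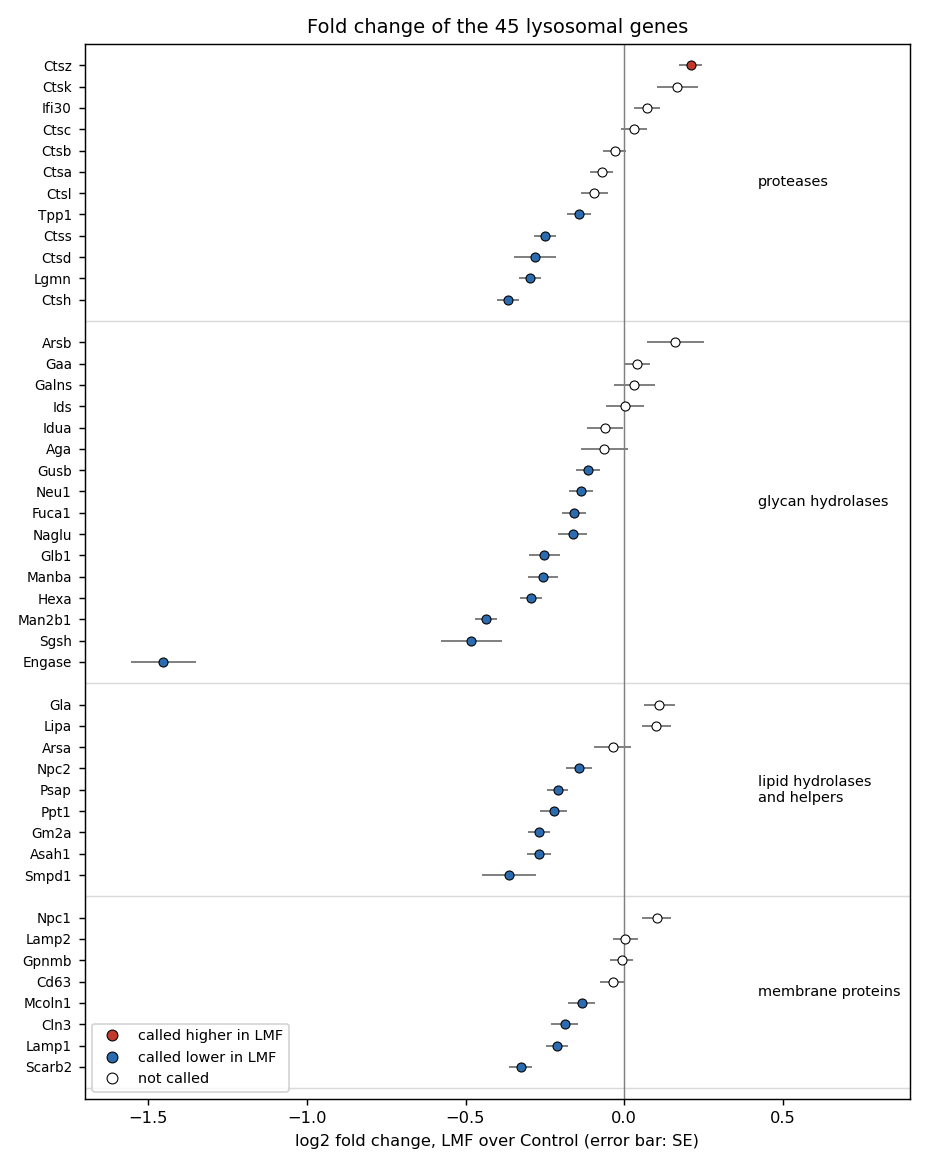
Log2 fold change of LMF over Control for each of the 45 genes, in 4 classes, with the standard error as bar (n = 4 libraries each) and the fill showing the call at an adjusted p of 0.05. Called decreases (25 genes) fill the lower end of every class, Engase stands alone at -1.45, and Ctsz is the 1 called increase.

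Together the 45 genes gave 4.82 to 5.09% of all counts in the LMF libraries and 5.31 to 5.54% in the Control libraries, with means of 4.95 ± 0.113% in LMF and 5.47 ± 0.110% in Control (SD, n = 4 each). The LMF and Control ranges did not overlap. Psap alone gave 1.61 ± 0.0162% of all counts in LMF and 1.87 ± 0.0461% in Control. Glycan hydrolases gave 0.261 ± 0.00140% in LMF and 0.311 ± 0.00217% in Control, and lipid hydrolases with their helpers 1.94 ± 0.0176% in LMF and 2.23 ± 0.0496% in Control. Proteases gave 1.55 ± 0.0537% in LMF and 1.69 ± 0.0406% in Control, without overlap. For the membrane proteins the groups overlapped, at 1.12 to 1.24% in LMF and 1.21 to 1.26% in Control. These sums are descriptions and were not tested.

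**Figure D2:**
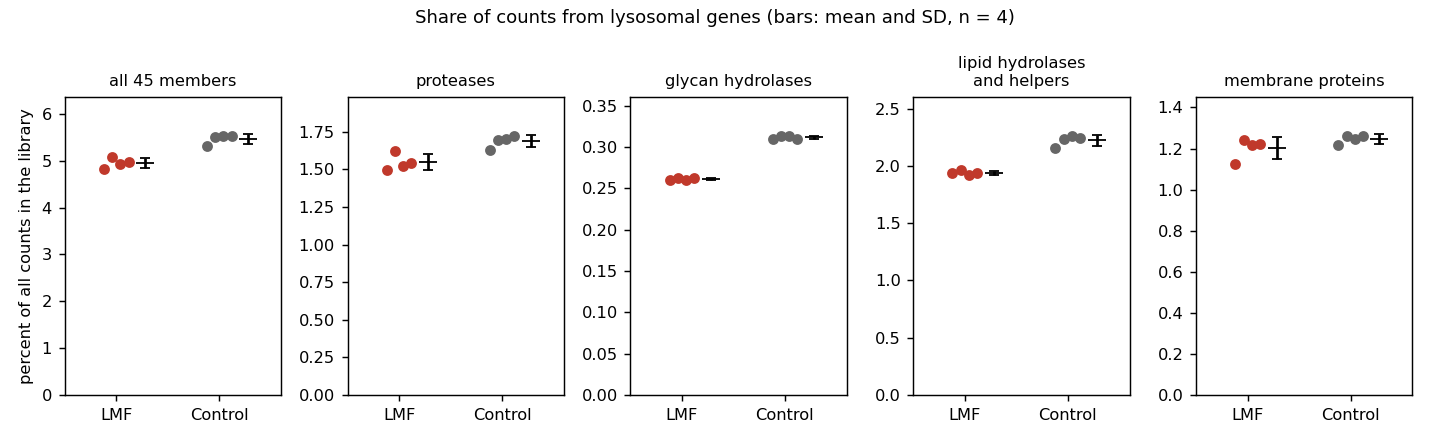
Percent of all counts in a library that came from all 45 genes and from each class, 1 point per library, with the mean and SD of the 4 libraries beside the points and axes that start at 0. LMF points lie below the Control points in all panels except the membrane proteins, where they overlap.

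The proteases split into a part that fell, a part that did not pass and 1 gene that rose. Of the 12, 5 fell (Ctsh, Lgmn, Ctsd, Ctss and Tpp1), Ctsz rose and 6 did not pass, with a median log2 fold change of -0.08. Ctsh, an aminopeptidase of the papain family, was measured at 467, 485, 459 and 461 CPM in LMF and at 592, 603, 604 and 612 CPM in Control. The LMF libraries lay within a narrow band well below the Control libraries (log2 fold change -0.36 ± 0.03 SE, edgeR adjusted p = 1.26e-10). Lgmn, the asparagine-specific endopeptidase legumain, was at 653, 673, 683 and 656 CPM in LMF and at 798, 803, 835 and 836 CPM in Control, again without overlap (-0.30 ± 0.03, edgeR adjusted p = 1.26e-08). Ctss, the protease that removes the last part of the invariant chain from MHC class II, was at 2494, 2729, 2607 and 2518 CPM in LMF and at 2941, 3152, 3087 and 3118 CPM in Control (-0.25 ± 0.04, edgeR adjusted p = 6.09e-07).

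Ctsd, the aspartic protease cathepsin D, was at 2683, 2917, 2342 and 2487 CPM in LMF and at 2934, 3136, 3264 and 3336 CPM in Control. LMF replicate 2 came close to the lowest Control library, and the LMF libraries were more spread than for the other proteases that fell (-0.28 ± 0.07, edgeR adjusted p = 0.00895). Without LMF replicate 1, Ctsd was no longer called, although its log2 fold change was then -0.30 (edgeR adjusted p = 0.0587). Tpp1, a tripeptidyl peptidase, was at 285, 313, 312 and 313 CPM in LMF, below the 329 to 344 CPM of Control (-0.14 ± 0.04). Ctsz, a carboxypeptidase of the papain family, was at 1451, 1556, 1423 and 1470.4 CPM in LMF and at 1241, 1275, 1271 and 1317 CPM in Control. All 4 LMF libraries lay above all 4 Control libraries (0.21 ± 0.04, edgeR adjusted p = 1.13e-05).

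Among the proteases that did not pass, Ctsb, the most abundant cathepsin of these, averaged 4997 ± 253 CPM in LMF and 5104 ± 196 CPM in Control (SD, n = 4 each, log2 fold change -0.03 ± 0.04). Ctsl, an endopeptidase, was at 718 to 863 CPM in LMF and 831 to 892 CPM in Control (-0.09 ± 0.04, edgeR adjusted p = 0.088). Ctsk, a collagen-degrading cathepsin known from osteoclasts, was at 70.6, 90.7, 82.5 and 73.7 CPM in LMF and at 65.2, 71.1, 70.7 and 76 CPM in Control. It missed the threshold by little (0.17 ± 0.07, edgeR adjusted p = 0.051) and was called higher under 7 of the alternatives, among them the fit without LMF replicate 1 (0.22, edgeR adjusted p = 0.00264). Ctsk and Ctss are neighbours on chromosome 3, where the table lists a gap of 17.4 kb between them. Ctsa, the protective protein of sialidase and beta-galactosidase, Ctsc, which activates granule serine proteases, and Ifi30, the thiol reductase GILT, had log2 fold changes of -0.07, 0.03 and 0.07.

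Glycan hydrolases, the largest class, held the most members that fell, though not the largest share. Of 16, 10 fell and none rose, with a median log2 fold change of -0.15. Engase, an endo-beta-N-acetylglucosaminidase that works on free N-glycans and is known as a cytosolic rather than a lysosomal enzyme, was at 11.5, 8.68, 9.01 and 8.92 CPM in LMF and at 23.8, 24.4, 30.6 and 25.7 CPM in Control. The LMF libraries lay far below the lowest Control library (-1.45 ± 0.10, edgeR adjusted p = 7.35e-14). The next decrease in size was that of Sgsh, the sulfamidase of heparan sulfate breakdown, at 13, 14.1, 14.1 and 14.7 CPM in LMF and at 16.6, 22.8, 19.2 and 19.6 CPM in Control. Both genes were among the least abundant members, and the Sgsh groups did not overlap (-0.48 ± 0.10, edgeR adjusted p = 0.000145). Man2b1, the lysosomal alpha-mannosidase, was at 631, 629, 639 and 669 CPM in LMF and at 857, 886, 859 and 873 CPM in Control. At this depth the gap was many times the spread within a group (-0.44 ± 0.03, edgeR adjusted p = 1.23e-12). Hexa, the alpha subunit of beta-hexosaminidase, was at 569, 604, 568 and 565 CPM in LMF and at 699.8, 698, 725 and 702 CPM in Control (-0.29 ± 0.04, edgeR adjusted p = 2.14e-08).

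The table lists Engase on chromosome 11 from 118367655 to 118380035, Sgsh on chromosome 11 from 119234251 to 119246362, Man2b1 on chromosome 8 from 85809899 to 85824911 and Scarb2 on chromosome 5 from 92589173 to 92654692. The table names no build for these coordinates, and none of the 45 members has the start and end of the GRCm38 annotation GENCODE M21. Gaa, the acid alpha-glucosidase that breaks down glycogen, lies 58.0 kb from Sgsh and 778.7 kb from Engase on the same chromosome. It was at 138, 147, 139 and 146 CPM in LMF and at 135, 141, 138 and 139.8 CPM in Control, so that the groups overlapped (0.04 ± 0.04, edgeR adjusted p = 0.486).

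Manba, beta-mannosidase, and Glb1, acid beta-galactosidase, had log2 fold changes of -0.26 ± 0.05 and -0.25 ± 0.05. Smaller decreases were measured for Naglu, which acts on heparan sulfate (-0.16 ± 0.04), the fucosidase Fuca1 (-0.16 ± 0.04), the sialidase Neu1 (-0.14 ± 0.04) and the glucuronidase Gusb (-0.11 ± 0.04). Gusb lost its call without Control replicate 2 (edgeR adjusted p = 0.0518). The remaining 5 members that did not pass beside Gaa were Ids, Idua, Arsb, Galns and Aga, which act on glycosaminoglycans or on glycoproteins, with log2 fold changes between -0.06 and 0.16. Enzymes of heparan sulfate breakdown were thus measured on both sides of the threshold, with Sgsh and Naglu lower and Ids and Idua at 0.00 ± 0.06 and -0.06 ± 0.06.

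Of 9 lipid hydrolases and helper proteins, 6 fell and none rose, with a median log2 fold change of -0.21. Smpd1, acid sphingomyelinase, was at 21.2, 22.3, 18.6 and 21.3 CPM in LMF and at 23.1, 29.9, 27.6 and 26.8 CPM in Control. The groups did not overlap, although Control replicate 1 came close to the LMF libraries (-0.36 ± 0.09, edgeR adjusted p = 0.000932). Asah1, acid ceramidase, was at 329, 358, 364 and 356 CPM in LMF and at 428, 436, 408 and 422 CPM in Control (-0.27 ± 0.04, edgeR adjusted p = 6.19e-07). Gm2a, the activator protein that presents GM2 ganglioside to hexosaminidase, was at 436, 466, 451 and 460.2 CPM in LMF and at 536, 544, 551 and 552 CPM in Control (-0.27 ± 0.04, edgeR adjusted p = 1.46e-07).

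Psap, the precursor of the saposins that help enzymes reach sphingolipids, was the most abundant member per length and by counts. It was at 16137, 16546, 15922 and 16049 CPM in LMF and at 17864, 18825, 19102 and 18969 CPM in Control, with every LMF library lower (-0.21 ± 0.03, edgeR adjusted p = 3.76e-06). Npc2, a soluble carrier of cholesterol, was at 1183, 1138, 1068 and 1008 CPM in LMF and at 1188, 1188, 1233 and 1244 CPM in Control, where LMF replicate 1 nearly reached the Control libraries (-0.14 ± 0.04, edgeR adjusted p = 0.00501). Ppt1, a palmitoyl-protein thioesterase, was at -0.22 ± 0.04. Those that did not pass were Lipa, the acid lipase of cholesteryl esters (0.10 ± 0.05), Gla, alpha-galactosidase A (0.11 ± 0.05), and Arsa, arylsulfatase A (-0.04 ± 0.06).

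Of 8 membrane proteins, 4 fell and none rose, with a median log2 fold change of -0.09. Scarb2, or LIMP-2, the receptor that carries glucocerebrosidase to lysosomes, was at 186, 186, 189.8 and 187 CPM in LMF and at 237, 230.2, 238 and 234 CPM in Control. Libraries of a group differed by only a few CPM (-0.33 ± 0.04, edgeR adjusted p = 6.16e-09). Lamp1 was at 1662, 1735, 1676 and 1673 CPM in LMF and at 1876, 1964, 1957 and 2017 CPM in Control (-0.21 ± 0.03, edgeR adjusted p = 4.83e-06). Its relative Lamp2 was at 628, 693, 715 and 710.2 CPM in LMF and at 659, 701, 673 and 707 CPM in Control, with overlapping groups (0.00 ± 0.04, edgeR adjusted p = 0.959). The sign of the Lamp2 estimate changed under upper-quartile factors and under library size alone, without a call in either.

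Cln3, a membrane protein whose loss causes a neuronal storage disease, was at 108, 107, 104 and 110.5 CPM in LMF and at 121, 119.9, 128 and 121 CPM in Control (-0.19 ± 0.04, edgeR adjusted p = 0.00063). It shares 442 exon bases with Apobr on the opposite strand, which makes its values uncertain if reads were counted without regard to strand. In GENCODE M21 the same holds for Ctsa, Ctsb, Ctsz, Ifi30, Hexa, Idua, Arsa, Ppt1, Lamp1 and Npc1, and Glb1 shares exon bases with a gene on its own strand. Ppt1 had 17427 counts in all libraries together and its partner Cap1 108913, while Lamp1 had 267811 and its partner Grtp1 1219. Among these partners Pltp and Neurl2 (both beside Ctsa) and Grtp1 fell, at -0.71, -1.79 and -0.46, and Fdft1 (beside Ctsb) rose, at 0.25. Mcoln1, the calcium channel TRPML1, was at -0.13 ± 0.04. Gpnmb, a glycoprotein of phagocyte lysosomes and the most abundant of the membrane proteins per length, was at 7714, 8855, 8592 and 8606 CPM in LMF and at 8203, 8617, 8504 and 8643 CPM in Control. The LMF range enclosed the Control range (-0.01 ± 0.04, edgeR adjusted p = 0.892). Npc1, the cholesterol exporter, and Cd63, a tetraspanin, did not pass at 0.10 ± 0.05 and -0.04 ± 0.04.

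**Figure D3:**
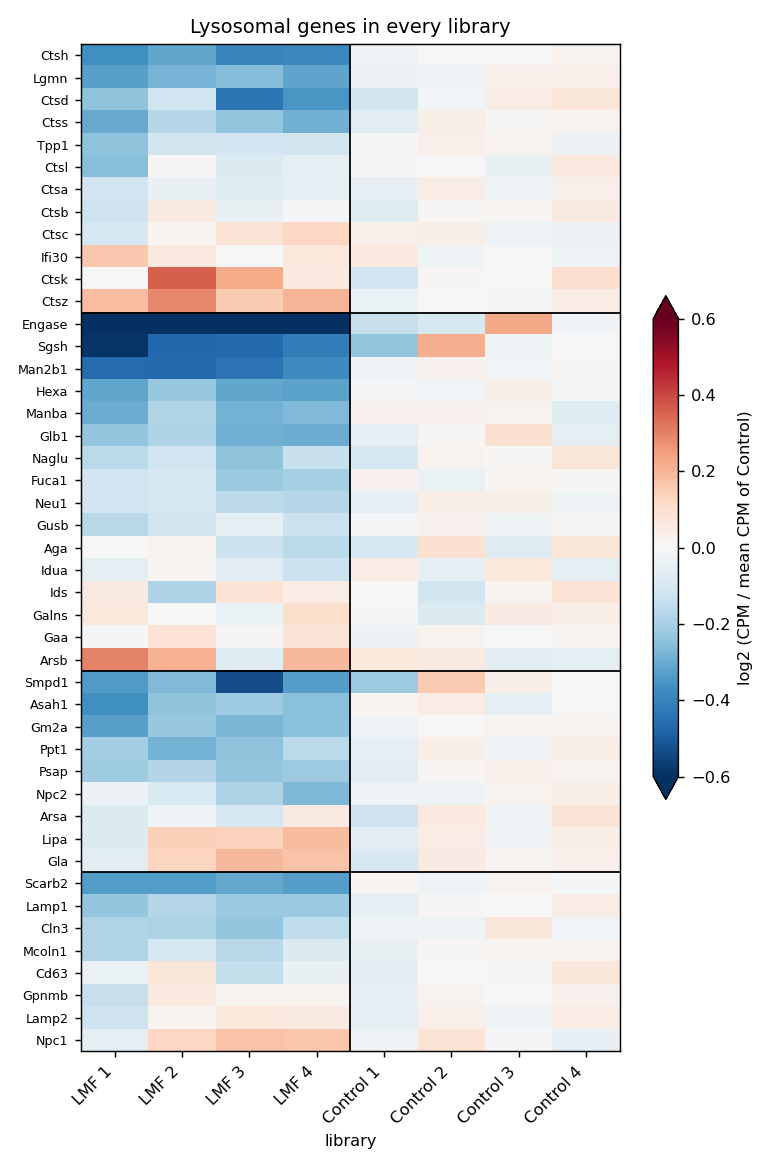
Each row is a gene and each column a library, with LMF left of Control, and colour gives log2 of CPM over the gene's mean in Control, cut off at 0.6 in both directions. Genes are grouped as proteases, glycan hydrolases, lipid hydrolases and membrane proteins from top to bottom and ordered by fold change, so that the 4 LMF columns are blue for the upper rows of each group and mixed for the lower rows.

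Some of the members that did not pass turned on a single library. LMF replicate 1 was the lowest LMF library for 21 of all 45 members. These included 11 of the 19 members that did not pass, among them Ctsb, Ctsl, Lipa, Gla, Npc1, Lamp2 and Gpnmb. For Lipa the LMF libraries had 983, 1148, 1146 and 1186 CPM, beside 997 to 1074 CPM in Control. When LMF replicate 1 was left out, 5 members were called higher in place of 1: Ctsz, Ctsk (0.22), Gla (0.16), Lipa (0.15) and Npc1 (0.15). The count of members that fell was then 24. Other libraries mattered too: Ctsl was called lower without LMF replicate 2 (-0.13, edgeR adjusted p = 0.0178). With all 8 libraries, Ctsl was also called lower under library size alone, without a filter and with offsets for GC content and transcript length. The edgeR adjusted p-values were then 0.04947, 0.02545 and 0.001669. Npc1 was called higher without Control replicate 2 (0.13, edgeR adjusted p = 0.0433). On the log2 scale LMF replicate 2 exceeded the average of LMF replicates 1, 3 and 4 in 36 of 45 members, with a median difference of 0.05. LMF replicates 1 and 3 were each below the average of the other LMF libraries in 29 members. Control replicate 1 was below the average of the other Control libraries in 36 of 45 members, with a median difference of -0.05.

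Per length, the members spanned more than 3 orders of magnitude. Psap was highest at 5868 ± 59.1 FPKM in LMF and 6818 ± 168 FPKM in Control, followed by Ctss at 1897 ± 65.7 FPKM in LMF and 2266 ± 55.7 FPKM in Control. Gpnmb (1291 ± 71.4 FPKM in LMF and 1305 ± 22.7 FPKM in Control) and Ctsd (1104 ± 98.9 FPKM in LMF and 1348 ± 66.6 FPKM in Control) came next, and the order of these neighbours differed between the groups, with Ctsd below Gpnmb in LMF and above it in Control. Ctsz, at 1020 ± 32.6 FPKM in LMF and 886 ± 15.6 FPKM in Control, lay next to Ctsb, and Lamp1 was the next in order. Only 4 members averaged under 10 FPKM over all libraries, namely Smpd1, Sgsh, Engase and Arsb. The genes that fell thus lay at both ends of the range, with Psap and Ctss at the top and Smpd1, Sgsh and Engase near the bottom.

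**Figure D4:**
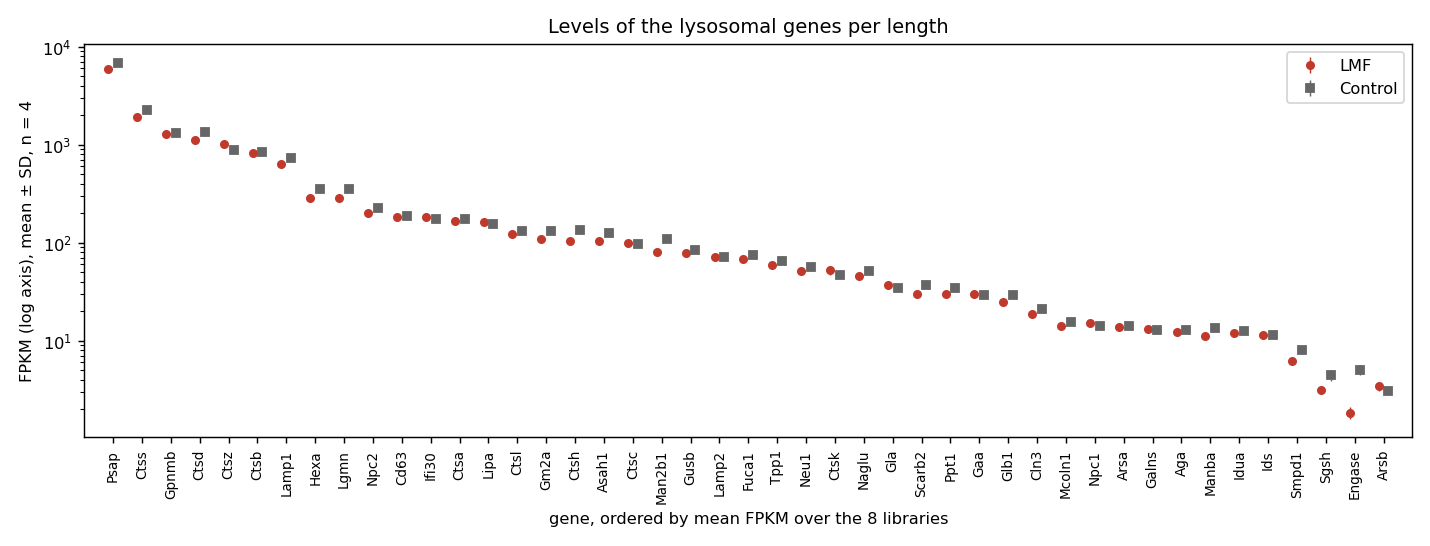
Mean FPKM with SD (n = 4) of each gene on a log axis, LMF left of Control, ordered by the mean over the 8 libraries. Psap leads at 5868 FPKM in LMF and 6818 FPKM in Control, and Engase shows the widest gap between the groups.

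Other lysosomal genes, 88 found in the table and 87 tested, had 34 lower and 15 higher, with a median of -0.09. Of all 14074 tested genes 16.9% fell and 17.5% rose, and of the 7586 abundant genes 23.3% fell and 24.1% rose. The share of other lysosomal genes that rose was thus close to that of all tested genes. The same background shares apply to the counts of each list below. Of 25 genes listed as other soluble hydrolases 10 fell and 3 rose. That list also holds the membrane acetyltransferase Hgsnat, which did not pass, and the oxidase Pcyox1, which fell (-0.62 ± 0.04). Pla2g15, a lysosomal phospholipase, was at 96.3, 102, 89.7 and 95.2 CPM in LMF and at 165, 173, 175 and 173 CPM in Control (-0.84 ± 0.04, edgeR adjusted p = 2.66e-17), and the low-level cathepsin Ctsf averaged 3.21 ± 0.386 CPM in LMF and 6.69 ± 0.766 CPM in Control (-1.06 ± 0.16). Acp2, an acid phosphatase, rose (0.34 ± 0.05). Of 27 tested other membrane proteins 15 fell and 3 rose, with the amino acid transporter Slc36a1 (-0.74 ± 0.04) and the ion channel Tpcn1 (-0.65 ± 0.05) lower and the peptide transporter Slc15a3 (0.39 ± 0.04) and Laptm4b (0.27 ± 0.09) higher. Laptm4b lost its call without LMF replicate 4 (edgeR adjusted p = 0.0584) and without Control replicate 3 (edgeR adjusted p = 0.0655). Slc15a3 shares exon bases with Tmem132a and Acp2 with Ddb2, each on the opposite strand.

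Both mannose 6-phosphate receptors rose while many of the hydrolases they carry fell. M6pr was at 510.0, 523, 525 and 532 CPM in LMF and at 399.9, 419.7, 406 and 419 CPM in Control (0.35 ± 0.04, edgeR adjusted p = 5.54e-10). Igf2r was at 68.6, 86.5, 87.4 and 92.8 CPM in LMF and at 62.1, 61.2, 67.2 and 58.5 CPM in Control, with LMF replicate 1 closest to Control (0.43 ± 0.07, edgeR adjusted p = 0.000161). In the whole list of 10 sorting receptors and hydrolase activators 3 rose and 3 fell, with progranulin (Grn, -0.23 ± 0.04) and Cln6 (-0.31 ± 0.07) among those that fell. Of 8 genes listed as cysteine protease inhibitors Cstb (0.24 ± 0.04) and Cst7 (0.33 ± 0.12) rose and Serpinb6a (-0.33 ± 0.05) fell. Serpinb6a is known mainly as an inhibitor of serine proteases, and it shares exon bases with Nqo2 and Ripk1 on the opposite strand. Nqo2 and Ripk1 fell as well, at -0.61 and -0.13. The call of Cst7 was lost without LMF replicate 2, 3 or 4 or Control replicate 1 or 4, with edgeR adjusted p-values of 0.0524 to 0.157.

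Of 17 MiT-TFE factors and their regulators 4 rose and 5 fell, with a median of 0.01. Tfeb was at 58.1, 60.4, 52.5 and 54.8 CPM in LMF and at 68.6, 73.8, 78.8 and 65.0 CPM in Control (-0.34 ± 0.06, edgeR adjusted p = 1.74e-05). Mitf was at 60.4, 74.3, 77.8 and 75.7 CPM in LMF and at 63.9, 62.4, 58.5 and 55.8 CPM in Control (0.26 ± 0.07, edgeR adjusted p = 0.00267). The other factors of the family, Tfe3 (0.05 ± 0.04) and Tfec (0.03 ± 0.05), did not pass. Tfe3 was the most abundant of these factors, with means of 168 CPM in LMF and 162 CPM in Control. Flcn, folliculin, fell (-0.38 ± 0.04) and Rptor, the mTORC1 subunit raptor, rose (0.33 ± 0.05). Activity of these factors depends largely on their place in the cell, which RNA levels do not show.

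**Figure D5:**
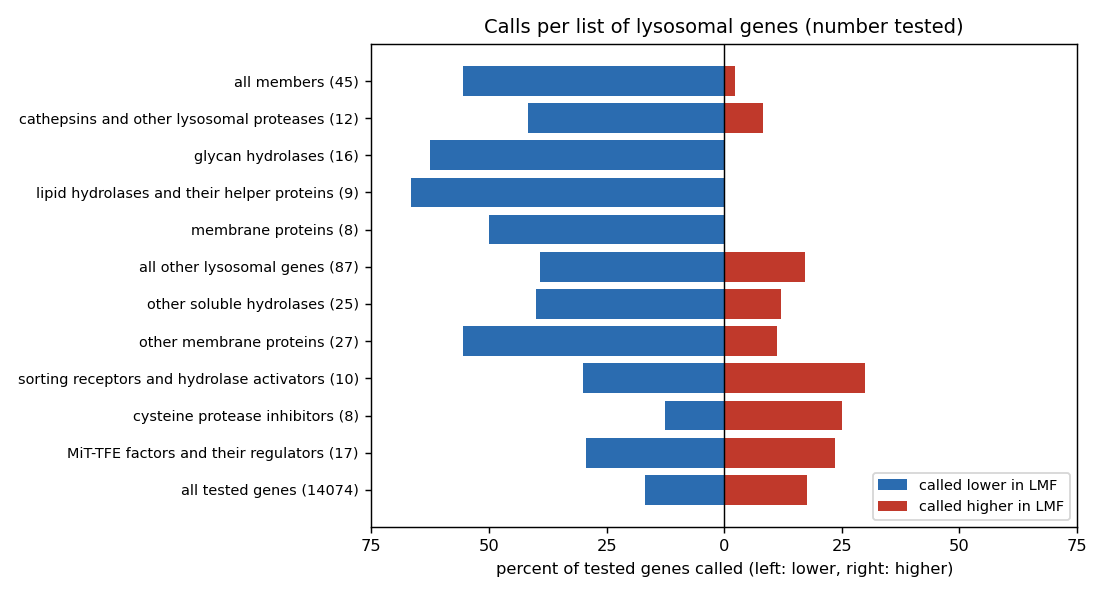
Percent of the tested genes of each list that were called lower (bars to the left) or higher (bars to the right) in LMF at an adjusted p of 0.05, with the number tested beside the name. Bars to the left are longer than those to the right for the 4 classes of members and for the other soluble hydrolases and membrane proteins, and close to even for all tested genes (16.9% lower and 17.5% higher).

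Markers of macrophages, cells rich in lysosomes that also arise in such cultures, moved in the same direction. Of 12 macrophage markers 11 were tested, 8 fell and none rose, and their summed level was 4197 to 4359 CPM in LMF and 6139 to 6850 CPM in Control. Apoe, the lipid carrier apolipoprotein E, made up most of that gap, and without it the sum was 2825 to 3084 CPM in LMF and 3231 to 3459 CPM in Control. Timd4 was below 1 CPM in every library. The markers Csf1r and Adgre1 did not pass (-0.02 ± 0.04 and 0.05 ± 0.04), and Cd68, from the list of other membrane proteins, was at -0.02 ± 0.04. Of 6 monocyte markers 2 rose, Ly6c2 (0.35 ± 0.04) and F13a1 (0.35 ± 0.05), and 2 fell, Ccr2 (-1.17 ± 0.04) and Fn1 (-0.56 ± 0.05). The summed level of monocyte markers was 1853 to 1981 CPM in LMF and 2569 to 2722 CPM in Control. Ccr2 (means of 335 CPM in LMF and 752 CPM in Control) and Fn1 (913 and 1342 CPM) carried that gap. Dendritic cell markers had 5 higher and 1 lower of 10 tested, with a summed level of 7298 to 8321 CPM in LMF and 7492 to 7865 CPM in Control. Neutrophil markers had 6 higher and 1 lower of 11, with a summed level of 3237 to 3335 CPM in LMF and 2854 to 2930 CPM in Control. Of 7 osteoclast markers, set beside Ctsk, 2 rose and 2 fell, Calcr and Oscar were below 1 CPM in every library, and the summed level was 726 to 809.9 CPM in LMF and 804 to 845 CPM in Control. The part of any of these cell types in the lower lysosomal levels was not tested.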

How the data were processed

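Poly-A RNA was sequenced, per the labels' protocols. Whether the kit marked strand is not stated. Groups come from the sample titles. The submitters' processing notes name Trimmomatic, HISAT2 2.0.5, HTSeq, DESeq2 and mm10, without roles. From the authors' deposited table come unnormalized counts for each gene and library, and FPKM as the authors calculated it. That FPKM divides by a length that equals, within 0.5%, the union of GENCODE M21 exons for all 45 members and for 98.3% of the 11697 genes compared.

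Deposited counts were filtered with filterByExpr, scaled by TMM and tested with edgeR 4.0.16 (robust quasi-likelihood F test, R 4.3.3, no term but group). P-values were adjusted by Benjamini-Hochberg over 14074 genes, and SE is the absolute log2 fold change divided by the root of F. On simulated counts for this comparison (13861 genes), 62% of 50 genes changed 1.25-fold were recovered, 74% at 1.5-fold and 84% at 2-fold, and 13 of 13666 unchanged genes were called. The changed genes were drawn at all abundances and were far fewer than the genes called in the data. These rates are therefore not those of the members. Chi-square per degree of freedom between libraries was 3.50 to 7.80 within groups, so none looked like copies.

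The members and all lists were chosen with earlier results of these data known. Genes were named by a written rule: per class the 3 largest called increases and decreases and the 2 highest by FPKM, and per further list the 2 largest called increases and decreases whose mean log2 CPM reached 2. Other genes named were picked after their values were seen. A gene that the rule names is not reported here. Of 89 further lysosomal genes 88 were found. The list of fibroblast and stroma markers had 3 of 4 tested members higher (23.8 to 26.2 CPM summed in LMF, 15.1 to 16.7 CPM in Control), that of mast cells and basophils 2 higher of 7, of T and NK cells none of 5, of B cells 1 lower of 6 and of erythroid cells and megakaryocytes 1 lower of 3. Alternatives were DESeq2 (1.42.0) size factors and test, upper-quartile factors, library size alone, limma-voom (limma 3.58.1), no filter, CPM of 1 in 4 libraries, a replicate block, leaving out each library, and limma-trend fits of log2 FPKM with a pseudocount of 1 or of 0.1. A further alternative, added after seeing the data, was a set of offsets for GC content and transcript length (20 bins each).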

Additional observations from a re-analysis of the deposited data

Results flagged for a closer look

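By Dixon's test 7 of 90 groups of 4 libraries held a library apart from the other 3, where chance gives about 4.5. The library was LMF replicate 1 for Tpp1 (285.3 CPM, against 311.6 to 312.9 in the others) and for Engase (11.5 CPM, against 8.68 to 9.01). It was LMF replicate 2 for Hexa (604 CPM, against 565 to 569) and for Ids (51.0 CPM, against 60.0 to 61.6). In Control it was replicate 3 for Hexa (725 CPM, against 698 to 702) and for Cln3 (128 CPM, against 119.9 to 121), and replicate 4 for Manba (89.1 CPM, against 95.0 to 95.5).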

How the results depend on the processing

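Under all 19 alternatives 24 of the 26 called members kept direction and call, and Ctsd and Gusb each lost the call without 1 library. Leaving out 1 library at a time gave 4307 to 5047 called genes in all and 24 to 26 members lower and 1 to 5 higher. By class these fits gave 4 to 6 proteases lower and 1 to 2 higher, 9 to 10 glycan hydrolases lower and 0 to 0 higher, 6 to 6 lipid genes lower and 0 to 2 higher, and 4 to 4 membrane proteins lower and 0 to 1 higher. For other lysosomal genes they gave 30 to 37 lower and 12 to 16 higher. Members called higher numbered 2 with library size alone, 3 without a filter, 3 with the replicate block and 4 with GC and length offsets. Among these were 2, 2, 2 and 3 proteases in the same order, 1 glycan hydrolase with the offsets, and 1 lipid gene without a filter and with the block. The replicate numbers left no visible pairing: same-numbered libraries deviated with correlations of -0.0618 to 0.0444, and no library correlated best with its own number. Low correlations cannot show that libraries were unpaired, because a shared culture or donor may leave little trace. The block called 4774 genes. Signs changed, with no call, for Ids (-0.005821 with upper-quartile factors, -0.002399 with library size alone, -0.004355 without a filter, -0.005097 and -0.005736 on FPKM plus 1 and 0.1, -0.04954 with the offsets) and Lamp2 (-0.006266, -0.003119, -0.004657, -0.0048, -0.00488 and -0.01129 in the same order). With the offsets they also changed for Ctsc (-0.01199), Arsa (0.01479) and Cd63 (0.009542). With 1 library left out, Ids ranged from -0.03204 to 0.06184, Lamp2 from -0.02023 to 0.042, Ctsc from -0.006824 to 0.07036 and Gpnmb from -0.03278 to 0.03012. The cause of these shifts was not tested. Genes with few counts, Engase and Sgsh among them, have the widest errors.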
